A study of Mus musculus with 5 samples.

Results

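Ribosome biogenesis genes encode the proteins that make, modify and fold ribosomal RNA and build it into the ribosomal subunits. The group examined holds every gene whose symbol matches a fixed list of name patterns (among them Nop, Nol, Utp and Rrp followed by a digit, Polr1, Ncl, Fbl and Dkc1), and 57 of the 11924 genes listed in the count tables matched. Of these, 56 encode known ribosome biogenesis factors. The remaining gene, Nol4l, matched by name only.

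Ribosome production begins in the nucleolus, where RNA polymerase I copies the ribosomal DNA into a long precursor RNA. Small nucleolar ribonucleoproteins (snoRNPs) then modify that precursor, those of the box C/D class by methylation and those of the box H/ACA class by pseudouridylation. The small subunit processome and the large subunit assembly factors cut and fold it. A resting T cell makes few ribosomes, and activation through the antigen receptor raises their production before the first division. The transcription factor MYC is known to drive many of these genes in activated lymphocytes.

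The study profiled SMARTA cells, CD4 T cells from mice that carry 1 transgenic T cell receptor, by droplet-based 3′ single-cell RNA sequencing, with 1 library per group and C57BL/6 given as the genotype of every group. The naive library came from spleen, without treatment. The other four came from the inguinal lymph node on day 8 after implantation of tumor cells in the mammary fat pad, and their cells had been sorted as CD4+CD45.1+. Of these, the untreated library is labelled as having no treatment, the antibody library came from CTLA4 blockade (anti-CTLA4 on days 0, 2 and 5), the depleted library from regulatory T cell (Treg) depletion with diphtheria toxin on days 0 and 2, and the combined library from both. The series' design text also names an isotype antibody, and no label says which libraries, if any, received it. The labels give no replicate animals, no strain or promoter for the toxin sensitivity, and 2 different names for the tumor. Each difference below therefore sets 1 library against another, with no replicate and no test, and every 95% interval covers counting error only.

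The naive, untreated, antibody, depleted and combined libraries held 7955, 1099, 4566, 2186 and 4343 cells. Their totals ran from 3825958 to 27967273 unique molecular identifiers (UMIs, each standing for 1 captured RNA molecule), and the median cell held 1683, 3133, 4797, 5208 and 2468 UMIs in the same order. Libraries shared 0 to 10 cell barcodes. Cd4 was present in all 5 libraries at 239 to 731 CPM (UMIs of a gene scaled to a common library total), and Cd8a was at 0.805 to 3.49 CPM. Cd8a and Cd8b1 together stood at 129, 83.9, 63.8, 38.5 and 41.7 CPM from the naive to the combined library, most of it Cd8b1. A Foxp3 UMI, the mark of Tregs, was found in 0.905%, 1.46% and 1.18% of cells of the naive, untreated and antibody libraries. In the libraries labelled Treg-depleted the share was 58.7% and, with antibody, 38.0%. A UMI of either SMARTA receptor variable gene was present in 21.4% and 18.6% of those Foxp3-positive cells, against 54.9% and 49.2% of the Foxp3-zero cells beside them. Most of those Foxp3-positive cells thus had no UMI of either variable gene, and whether they are SMARTA cells was not tested. Such a UMI was present in 34.4%, 63.2% and 73.6% of all cells of the naive, untreated and antibody libraries. Most cells of the naive library thus lacked one too. The background of Foxp3 UMIs from free RNA was not measured within these libraries. For library comparisons that rest on the libraries labelled Treg-depleted, the summed level is given below with and without Foxp3-positive cells. Leaving those cells out also lowered the median depth, from 5208 to 3836 UMIs in the depleted and from 2468 to 1952 in the combined library. The part of depth in the ratios without them was not tested. Counts of members and levels of single genes in the libraries labelled Treg-depleted include Foxp3-positive cells unless stated otherwise. Markers of 1 other cell type (at least 2 genes) were carried by 10 to 261 cells per library, and leaving those cells out moved the summed level by less than its counting interval in all 6 comparisons between libraries.

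The start sites of the genes are shown first, because the members differed in which short promoter elements they carry. RefSeq windows of 250 bases before to 50 bases after the start (GRCm38.p6) were matched for 48 of the 57 genes. The E-box CACGTG, the palindrome that MYC and its partner MAX are known to bind, was present in 10 of the 48 windows (20.8%), against 10.4% of 9190 windows of listed genes and 7.24% of all 27025 windows. Of the 10, 8 belonged to the small subunit processome, which had 19 windows. In 5 of the 10 the E-box lay wholly before the start, and these are printed with the E-box in capitals, 5′ to 3′ on the strand of the gene. The first, Nol11, lies at chr11:107189394-107189449 on the minus strand, with the E-box 43 bases before the start. The others are Nop2 at chr6:125131798-125131853 (plus strand, 60 bases), Rrp7a at chr15:83122979-83123034 (minus strand, 208 bases), Utp14b at chr1:78658352-78658407 (plus strand, 63 bases) and Utp18 at chr11:93885767-93885811 (minus strand, 20 bases).
Nol11: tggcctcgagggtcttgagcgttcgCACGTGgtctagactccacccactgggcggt
Nop2: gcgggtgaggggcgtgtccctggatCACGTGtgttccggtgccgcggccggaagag
Rrp7a: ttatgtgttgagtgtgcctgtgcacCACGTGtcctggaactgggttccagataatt
Utp14b: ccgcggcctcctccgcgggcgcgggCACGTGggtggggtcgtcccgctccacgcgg
Utp18: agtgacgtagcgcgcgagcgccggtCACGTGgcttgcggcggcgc

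The element CCGGAAG, on either strand, is the core bound by ETS family factors. It was present in 17 of the 48 windows (35.4%), against 19.7% of the windows of listed genes and 9.12% of all windows. It does not overlap the E-box in sequence. It is shown in capitals for Utp3, which carries it 2 times, as do Nol12, Utp18 and Utp4. It is also shown for Nhp2, Gar1 and Nolc1, as genes with a match among those higher in cycling cells of the depleted library below. Of the genes higher in those cycling cells, 10 had a window, and 7 of the 10, Ncl, Nop58 and Nop56 among them, held no match. In the combined library 8 of 15 such windows held one. The E-box was in 0 of those 10 windows and in 2 of those 15, against 10 of all 48. The stretches shown lie at chr11:51619725-51619772 (Nhp2, plus strand) and chr3:129831408-129831464 (Gar1, minus strand, where the element reads CTTCCGG). Those of Nolc1 and Utp3 lie at chr19:46075808-46075846 and chr5:88554213-88554355, each on the plus strand. The YY1 motif AAGATGGC was in 1 of the 48 windows (2.08%, against 4.98% of the windows of listed genes). No binding was measured in these cells, so a match is a match of letters only.
Nhp2: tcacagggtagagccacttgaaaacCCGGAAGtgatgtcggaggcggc
Gar1: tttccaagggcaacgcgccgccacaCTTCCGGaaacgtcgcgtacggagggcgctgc
Nolc1: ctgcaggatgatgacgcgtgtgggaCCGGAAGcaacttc
Utp3: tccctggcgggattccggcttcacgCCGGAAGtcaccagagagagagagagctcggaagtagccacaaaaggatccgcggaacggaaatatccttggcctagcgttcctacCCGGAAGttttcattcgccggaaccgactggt

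The 57 genes together took up just under 1% of the UMIs in each library. Their share was 0.838% (0.833 to 0.843) in the naive library, 0.937% (0.928 to 0.947) in the untreated, 0.901% (0.898 to 0.905) in the antibody, 0.974% (0.969 to 0.979) in the depleted and 1.00% (0.995 to 1.004) in the combined library. The naive library was lowest and the combined library highest, and no 2 intervals overlapped. A single gene, Ncl, held 19.5% of the members' level averaged over the libraries, and without it the shares were 0.729%, 0.763%, 0.746%, 0.747% and 0.758%. These sums weigh a cell by its UMIs. When each cell counted equally the mean share was 0.831%, 0.862%, 0.835%, 0.826% and 0.810%, so that the combined library was then the lowest.

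**Figure D1:**
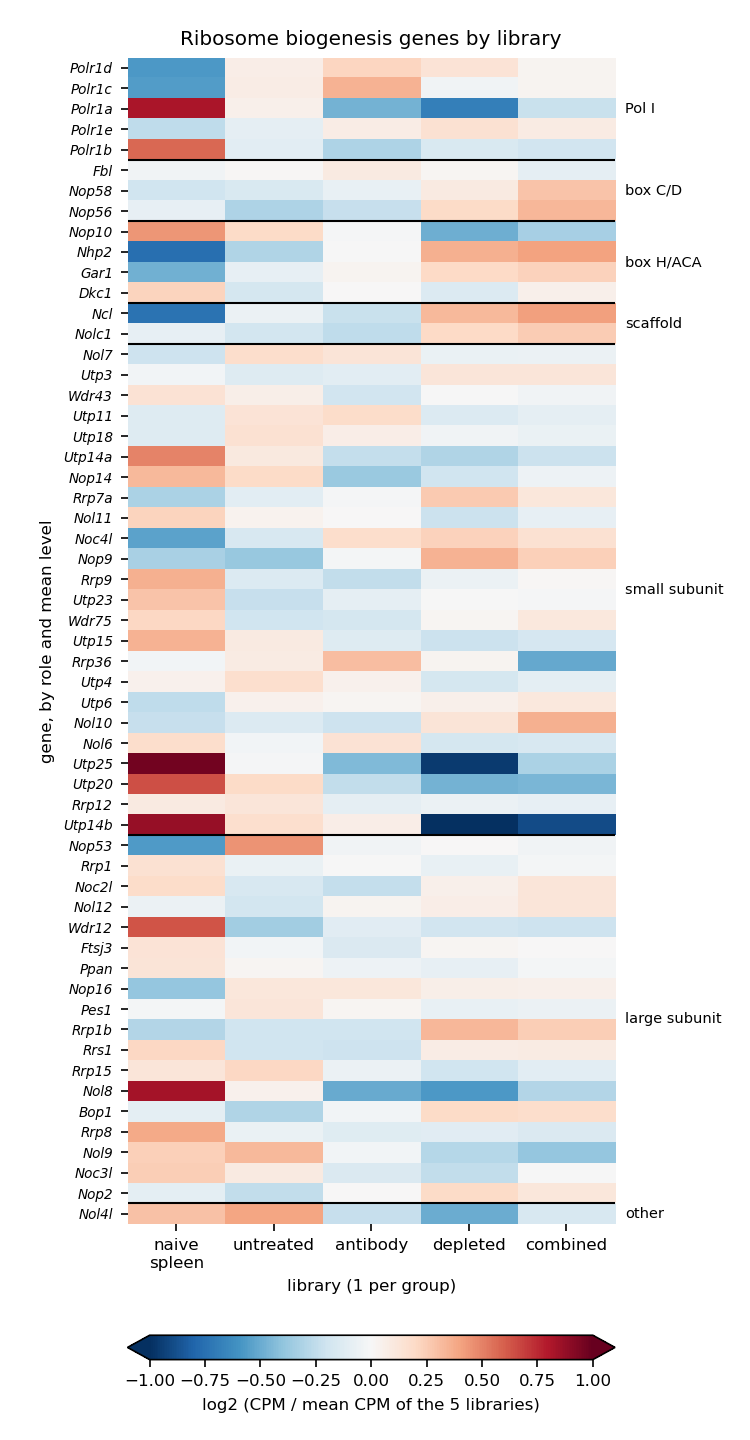
Level of each of the 57 genes in the 5 libraries, as the log2 of its CPM over its own mean CPM across the libraries (colour, rows grouped by role and ordered by mean level, columns the libraries). Genes of 1 role do not share 1 pattern: Polr1d and Polr1c are lowest in the naive library while Polr1a is highest there.

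RNA polymerase I, which transcribes the ribosomal DNA, was represented by 5 subunit genes. Polr1d and Polr1c encode subunits shared with RNA polymerase III. Polr1d was at 492, 768, 847, 805 and 747 CPM in the naive, untreated, antibody, depleted and combined libraries, and Polr1c at 56.1, 87.0, 105, 80.7 and 83.9 CPM. Both were lowest in the naive library. Polr1a, the largest subunit and part of the catalytic centre, ran the other way, at 77.1, 45.2, 31.5, 27.2 and 37.5 CPM, with its highest level in the naive library. Its catalytic partner Polr1b was at 18.5, 11.5, 10.0, 11.1 and 10.8 CPM, too low to be counted as measured in any comparison. Polr1e, an accessory subunit, stayed between 31.02 and 41.1 CPM. Of the end of the Polr1d transcript, where 3′ reads fall, 23.2% of the 31-base words are shared with the gene Gm12751, so its level is uncertain.

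The box C/D snoRNP proteins carry out methylation of ribosomal RNA. Fbl, the methyltransferase, was nearly level at 371, 383, 405, 387 and 358 CPM. The core proteins Nop58 (231, 239, 253, 282 and 323 CPM) and Nop56 (217, 186, 196, 263 and 289 CPM) were both highest in the combined library and next highest in the depleted library.

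The box H/ACA proteins carry out pseudouridylation and also belong to telomerase. Nhp2, a core protein, was at 173, 237, 290, 372 and 384 CPM, so that each lymph node library lay above the naive one. Nop10, the smallest core protein, had nearly the opposite order, at 764, 642, 558, 400 and 447 CPM. Gar1 was at 122, 161, 174, 196 and 199 CPM and followed the order of Nhp2. Dkc1, the pseudouridine synthase, was at 186, 141, 160, 145 and 165 CPM, highest in the naive library.

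Ncl encodes nucleolin, an abundant nucleolar RNA-binding protein, and lies at chr1:86344719-86359400 on the minus strand (GRCm38). Its level was 1087, 1742, 1559, 2278 and 2421 CPM, which made it the most abundant member in all 5 libraries. These are 3′-end UMI counts, which do not scale with transcript length. Nolc1, a chaperone of snoRNPs, was at 158, 148, 141, 193 and 200 CPM, with both libraries of toxin-treated mice above the other three.

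The small subunit processome assembles on the start of the precursor RNA, and 24 members belong to it. Together they stood at 2395, 2457, 2361, 2320 and 2330 CPM. The 4 most abundant were Nol7 (533, 697, 674, 589 and 591 CPM), Utp3 (268, 250, 254, 298 and 298 CPM), Wdr43 (246, 232, 195, 222 and 217 CPM) and Utp11 (165, 198, 205, 164 and 170 CPM). Several of the least abundant had the widest range. Utp14b, a retrogene copy of Utp14a that lies within and on the same strand as Acsl3, was at 23.0, 14.1, 13.2, 5.76 and 6.76 CPM, and Utp25 at 43.4, 21.96, 16.4, 11.4 and 17.8 CPM. Both were highest in the naive library and lowest in the depleted one.

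Large subunit assembly was represented by 18 members, with summed levels of 1992, 2088, 1879, 1939 and 1957 CPM. Nop53, a late processing factor of the large subunit, was at 333, 672, 481, 494 and 480 CPM, highest in the untreated and lowest in the naive library. Rrp1 (378, 324, 338, 323 and 335 CPM), Noc2l (136, 108, 102, 125 and 131 CPM) and Nol12 (101, 92.8, 107, 110 and 114 CPM) varied less. Bop1, Pes1 and Wdr12 form the PeBoW complex, which large subunit maturation needs. Their levels did not follow each other across libraries: Bop1 was highest in the depleted library (69.3 CPM), Pes1 in the untreated (82.6 CPM) and Wdr12 in the naive (151 CPM against 76.8 to 90.2 CPM elsewhere). Nol4l was at 3.65 to 6.80 CPM. Over all 57 genes the naive library gave the highest level for 25 and the lowest for 16. The same count was not made over all listed genes, so these numbers have no background to be read against.

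The first comparison asks how the members differed between tumor-side lymph node cells and naive spleen cells. The summed level was 1.12 times as high in the untreated library (interval 1.11 to 1.13). Of the 57 members, 53 were measured, that is, they averaged 25 CPM or more over the pair of libraries and had 30 UMIs or more in it. Nol4l, Polr1b, Rrp12 and Utp14b did not. Of the 53, 4 (against 12.8% of all measured genes) were at least 1.5-fold higher and 4 (against 16.9%) at least 1.5-fold lower. Both shares lie below the background. With edgeR's TMM scaling (trimmed mean of M-values, in place of the library total) the counts were again 4 (against 13.3%) and 4 (against 16.1%). The median log2 ratio of the measured members was -0.10, against -0.06 for all measured genes.

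Nop53 had the largest ratio, 2.02-fold higher in the untreated library (1.92 to 2.12), followed by Ncl (1.60-fold), Polr1d (1.56-fold), Polr1c (1.55-fold) and Nop16 (1.41-fold), a large subunit factor. At the other end Utp25 was 1.98-fold lower, Wdr12 1.97-fold lower (1.74 to 2.23) and Nol8 1.73-fold lower. Polr1a, 1.70-fold lower, was the fourth below the 1.5-fold line. By role, RNA polymerase I had a summed ratio of 1.40 and the nucleolar scaffold genes 1.52, whereas the box H/ACA genes had 0.949 and the small subunit processome 1.03. Apart from that of the processome, these sums rested largely on 1 gene each. In the untreated library Polr1d held 768 of 946 CPM, Ncl 1742 of 1889 and Nop10 642 of 1181. Polr1c (1.55) and Polr1e (1.12) had ratios above 1, Polr1a (0.587) and Polr1b (0.623, not measured) below. Nolc1 had 0.933. Nhp2 (1.37) and Gar1 (1.32) lay above 1, Nop10 (0.841) and Dkc1 (0.761) below. Of the 8 genes past 1.5-fold, 6 stayed so in the same direction in all 8 other ways of choosing or weighing cells tried. The exceptions were Polr1c, and Ncl, which was only 1.03-fold higher when cells of 2000 to 6000 UMIs were compared. In that window the summed ratio was 0.939, below 1. Depth still differed within it, with medians of 2211 UMIs in the naive and 3392 in the untreated library, because the naive library held 0 cells of 4000 UMIs or more.

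**Figure D2:**
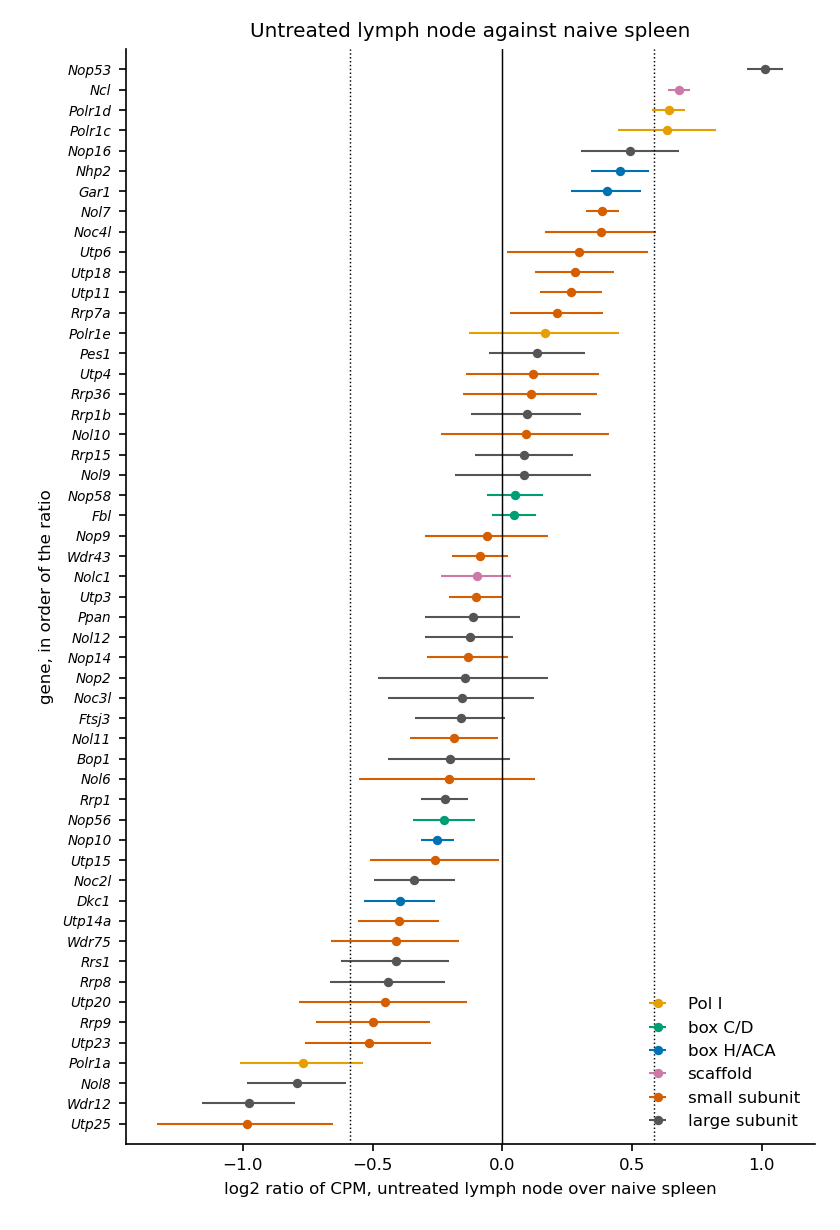
Log2 ratio of CPM, untreated lymph node over naive spleen, for the 53 measured members (points, coloured by role) with 95% counting intervals (bars) and the 1.5-fold lines (dotted). Nop53 stands alone at the top, and members of the same role lie on both sides of 0.

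CTLA4 blockade alone was compared with no treatment, both in lymph node cells. The summed level of the 57 genes was 0.961 times that of the untreated library (0.951 to 0.972). None of the 51 measured members was 1.5-fold higher, against 5.46% of all measured genes, and none was 1.5-fold lower, against 6.62%. The highest ratios belonged to Nop9 (1.28-fold), Noc4l (1.26-fold), Nhp2 (1.22-fold), Bop1 (1.21-fold) and Polr1c (1.21-fold). The lowest belonged to Nop14 (1.48-fold lower), Nol8 (1.45-fold lower) and Polr1a (1.44-fold lower). With TMM scaling the summed ratio was 1.02, on the other side of 1, and 0 members were higher (against 6.79%) or lower (against 4.11%).

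Treg depletion alone was compared with the same untreated library. The summed level was 1.04 times as high (1.03 to 1.05), but 0.959 times when Foxp3-positive cells were left out and 0.856 times without G2M-positive cells, which are defined below. Of 50 measured members, 2 (against 12.2% of all measured genes) were 1.5-fold higher and 4 (against 27.5%) 1.5-fold lower. With TMM scaling the summed ratio was 1.29, and 13 members (against 22.8%) were higher and 0 (against 14.3%) lower. The 2 were Nop9 (1.65-fold) and Nhp2 (1.57-fold), followed by Rrp1b (1.45-fold), Nop56 (1.41-fold) and Bop1 (1.41-fold). Polr1a (1.66-fold lower), Nop10 (1.60-fold), Nol9 (1.53-fold), a kinase that acts on the cut precursor, and Nol8 (1.53-fold) were the 4 below. All 6 kept their direction in the 8 alternatives, and none was past 1.5-fold in all of them. Without G2M-positive cells Nhp2 was only 1.03-fold higher.

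The combined treatment gave a summed level 1.07 times that of the untreated library (1.05 to 1.08), 0.901 times without Foxp3-positive cells and 0.873 times without G2M-positive cells. Here 3 of 50 measured members (against 10.6% of all measured genes) were 1.5-fold higher, namely Nhp2 (1.62-fold), Nop56 (1.56-fold) and Nop9 (1.53-fold), with Nol10 (1.41-fold) and Bop1 (1.39-fold) next. The 2 that were 1.5-fold lower (against 18.2%) were Nol9 (1.64-fold) and Rrp36 (1.51-fold), an early small subunit factor, with Nop10 (1.44-fold lower) next. With TMM scaling the summed ratio was 1.22, and 9 members (against 16.1%) were higher and 0 (against 9.96%) lower. These comparisons share the untreated library, which had the fewest cells.

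Set against the antibody library, the combined library had a summed level 1.11 times as high (1.10 to 1.12), 0.942 times without Foxp3-positive cells. Ncl was the 1 member of 50 that was 1.5-fold higher (1.55-fold, against 7.81% of all measured genes), with Nol10 (1.48-fold), Nop56 (1.47-fold), Nolc1 (1.42-fold) and Rrp1b (1.36-fold) next. Rrp36, at 50.3 CPM in the antibody and 28.5 CPM in the combined library, was the 1 that was 1.5-fold lower (1.77-fold, against 9.64%), and it stayed past 1.5-fold in all 8 alternatives. Nol9 and Polr1c (1.28-fold and 1.25-fold lower) followed. With TMM scaling 4 members (against 9.38%) were higher and 1 (against 7.74%) lower.

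Set against the depleted library, the combined library had a summed level 1.03 times as high (1.02 to 1.03), but 0.939 times without Foxp3-positive cells and 0.974 times with TMM scaling. None of 50 measured members was 1.5-fold higher (against 4.44% of all measured genes) or lower (against 0.99%). Polr1a (1.38-fold), Nol8 (1.21-fold), Noc3l (1.18-fold), Nol10 (1.17-fold) and Nop58 (1.15-fold) were the highest. Rrp36 (1.45-fold), Rrp7a (1.11-fold) and Fbl (1.08-fold) were the lowest. With TMM scaling 0 members (against 3.27%) were higher and 1 (against 1.31%) was lower.

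The typical cell differed little between libraries at equal depth. Each cell of at least 1000 UMIs was thinned at random to 1000 UMIs, and the UMIs of the 57 genes were counted. The mean was 8.33, 8.51, 8.37, 8.32 and 8.19 in the naive, untreated, antibody, depleted and combined libraries, and the median was 8 in the naive and 7 in each lymph node library. The upper tail differed more. The 95th percentile was 15 in the naive library and 20, 18, 19 and 18 in the lymph node libraries, and the 99th percentile was 20 against 30.5, 27, 28 and 27.

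**Figure D3:**
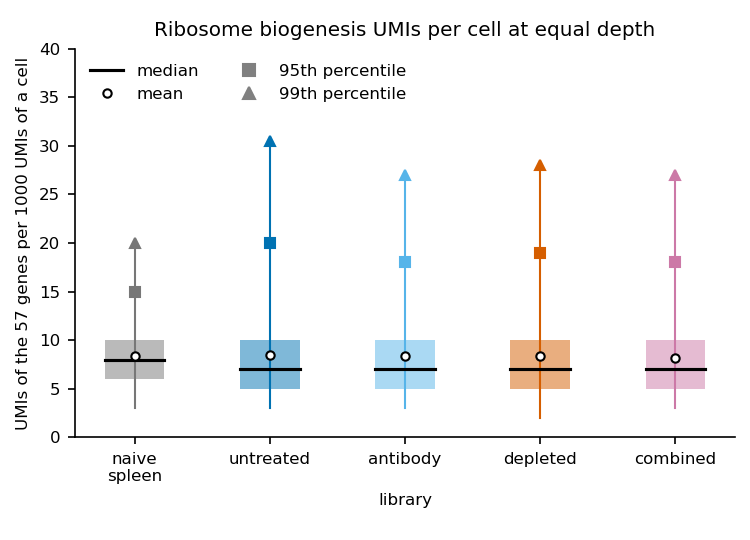
UMIs of the 57 genes per cell after thinning each cell to 1000 UMIs, by library (box, 25th to 75th percentile; line, 5th to 99th percentile). Medians and means lie close together, between 7 and 8.51, while the 95th and 99th percentiles of the lymph node libraries lie above those of the naive library.

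Cells with at least 20 such UMIs made up 1.28% of the naive library (100 cells, exact binomial interval 1.04 to 1.55), 5.20% of the untreated (56 cells, 3.95 to 6.70), 3.90% of the antibody (178 cells), 4.70% of the depleted (101 cells) and 4.07% of the combined library (161 cells). The boundary was chosen after the values were seen, and no gap separates the cells on either side of it: in the untreated library 17 cells had 18 or 19 and 13 had 20 or 21. In all 5 libraries the cells above it had more Myc than the rest: 195 against 51.7 CPM in the naive, 199 against 41.2 CPM in the untreated, 137 against 35.4 CPM in the antibody, 195 against 46.7 CPM in the depleted and 186 against 54.5 CPM in the combined library. Their Il2ra was also higher in all 5, at 66.6 against 9.44 CPM in the naive and 842 against 550 CPM in the depleted library. Irf4 was higher too, though nearly level in the naive library (4.76 against 4.46 CPM). Mki67, Ccr7 and Cd69 were higher in some libraries and lower in others. The cells above the boundary were also deeper, with a median of 4686 against 3124 UMIs in the untreated and 13135 against 5153 UMIs in the depleted library. Of these cells 0 of 100 were G2M-positive in the naive library and 0 of 56 in the untreated, which allows shares of up to 3% and 5.36%. The share was 21.3%, 64.4% and 54.7% in the antibody, depleted and combined libraries. Of the remaining cells, 0.142%, 4.70%, 24.9%, 38.8% and 29.7% were G2M-positive in the 5 libraries.

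A cell was called G2M-positive when, after thinning to 1000 UMIs, it had UMIs of at least 2 of 34 genes of the G2 and M phases of the cell cycle. The share of such cells was 0.141%, 4.46%, 24.7%, 40.03% and 30.7% of the cells of at least 1000 UMIs. The proliferation gene Mki67 was at 2.03, 68.7, 358, 581 and 519 CPM over all cells.

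G2M-positive cells had more UMIs, and the members' share was highest in the deepest cells. In cells of 2000 to 4000 UMIs the 57 genes took up 0.882%, 0.809%, 0.765%, 0.715% and 0.734% of UMIs in the 5 libraries, highest in the naive one. From 16000 UMIs upward the share was 1.24% in the antibody (184 cells), 1.36% in the depleted (216 cells) and 1.67% in the combined library (131 cells), and 84.2%, 92.6% and 96.2% of these cells were G2M-positive. They were 4.03%, 9.88% and 3.02% of the cells but held 12.9%, 29.7% and 15.7% of all UMIs. The untreated library had 4 such cells and the naive library 0. In the untreated library the 35 cells of 8000 to 16000 UMIs had a share of 1.49%, and 31.4% of them were G2M-positive.

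**Figure D4:**
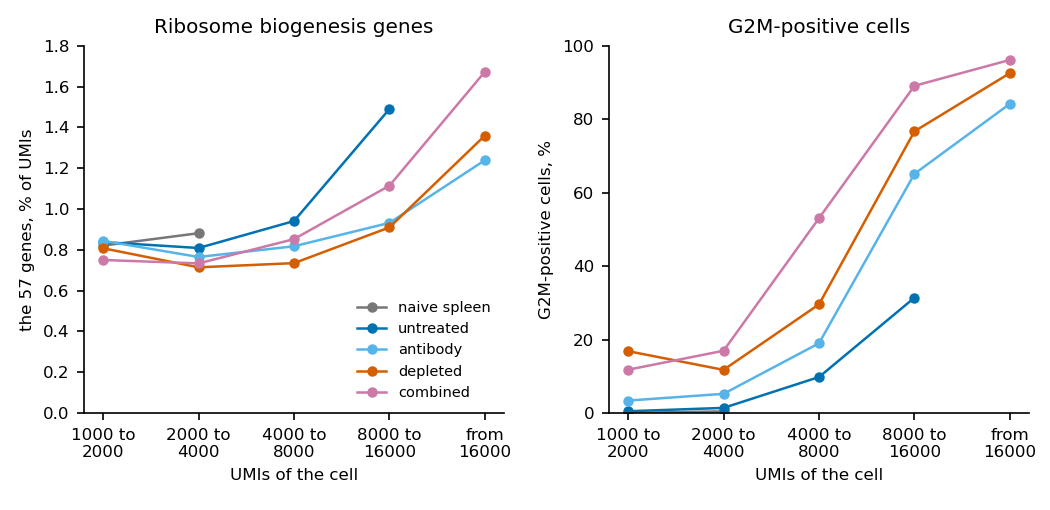
Share of UMIs from the 57 genes (left) and share of G2M-positive cells (right) by the depth of the cell, for each library; groups of under 20 cells are left out. Both shares are highest in the deepest cells of each lymph node library, and at 2000 to 4000 UMIs the naive library is the highest of the 5 on the left.

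Cycling state was compared within each library. In the depleted library the summed level was 1.32 times as high in 861 G2M-positive cells as in 1290 G2M-negative cells (1.30 to 1.33), and in the combined library 1.38 times as high in 1217 as in 2742 cells (1.36 to 1.39). In the antibody library the ratio was 1.01 (1.01 to 1.02, 1129 cells), and in the untreated library it was 0.844 (0.811 to 0.879, 48 cells). The naive library had 11 G2M-positive cells (1.05, 0.916 to 1.19). The median G2M-positive cell held 10188 UMIs in the depleted library against 4026 in the rest, and 5866 against 2252 in the combined one. Among cells of 2000 to 6000 UMIs the ratios were 1.03 in the depleted, 1.01 in the combined, 0.937 in the antibody and 0.745 in the untreated library. G2M-positive cells were deeper within this window too, with medians of 4444 against 3762 UMIs in the depleted and 3785 against 2802 in the combined library. The share of the difference that depth accounts for was not tested.

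The genes that were higher in cycling cells of the depleted library came mostly from the snoRNP and scaffold groups. Of 50 measured members, 11 were 1.5-fold higher (against 13.0% of all measured genes) and 1 was 1.5-fold lower (against 20%). Gar1 was at 242 against 120 CPM (2.01-fold, 1.85 to 2.19) and Ncl at 2782 against 1450 CPM (1.92-fold, 1.87 to 1.97). Nhp2 (1.83-fold), Nop58 (1.79-fold) and Nop56 (1.72-fold) followed, and Dkc1, Nolc1, Wdr75, Nop9, Fbl and Ftsj3 completed the 11. All 3 box C/D genes, 3 of 4 box H/ACA genes and both scaffold genes were among them, against 2 of 19 measured small subunit genes, 1 of 18 large subunit genes and none of 4 for RNA polymerase I. Nop53 went the other way, at 396 against 651 CPM (1.65-fold lower), with Polr1d (1.196-fold lower) and Polr1a (1.14-fold lower, but above 1 with TMM scaling) next. With TMM scaling 22 members (against 19.6%) were higher and 0 (against 11.4%) lower. At 2000 to 6000 UMIs Ncl was still 1.51-fold and Nop56 1.42-fold higher, while Gar1, Nop58 and Fbl had ratios below 1.

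The combined library showed 17 of 49 measured members 1.5-fold higher in cycling cells (against 13.4%) and 1 lower (against 27.9%). Nop58 was at 425 against 202 CPM (2.10-fold, 1.98 to 2.24), followed by Nhp2 (1.96-fold), Ncl (1.92-fold), Gar1 (1.88-fold) and Nop56 (1.81-fold). Nop53 was again the 1 below (366 against 615 CPM, 1.68-fold lower), with Nol8 and Noc3l (1.10-fold and 1.06-fold lower, but above 1 with TMM scaling) next. With TMM scaling 30 members (against 25%) were higher and 0 (against 15.3%) lower. At 2000 to 6000 UMIs none of the 17 except Nop56 (1.44-fold) and Nop58 (1.31-fold) was above 1.3-fold higher.

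In the antibody library 0 of 51 measured members were 1.5-fold higher in cycling cells (against 7.45%) and 2 were lower (against 11%), namely Polr1a (1.57-fold) and Nop53 (1.53-fold). Nop58 (1.35-fold), Nop56 (1.29-fold), Utp3 (1.24-fold), Gar1 (1.24-fold) and Ncl (1.21-fold) were the highest, and Ppan, a large subunit factor, was 1.43-fold lower. With TMM scaling 1 member (against 11.7%) was higher and 0 (against 4.08%) were lower. In the untreated library 0 of 49 were 1.5-fold higher (against 9.76%) and 17 were lower (against 15.2%), and 9 of these were large subunit genes. Rrp9, a protein of the U3 snoRNP, was at 15.5 against 58.0 CPM (3.75-fold lower, 1.58 to 11.7), Noc2l at 37.1 against 114 CPM (3.07-fold, 1.74 to 6.00) and Bop1 at 18.5 against 51.9 CPM (2.80-fold, 1.26 to 7.73). Rrp36 (1.40-fold higher) and Utp4 (1.23-fold), Wdr12 (1.23-fold), Utp15 (1.21-fold) and Nop58 (1.15-fold) were at the other end, with intervals that include 1. These rest on 48 cells. Of the 17, 5 were lower in all 6 alternatives and 0 were past 1.5-fold in all of them. Across the alternatives 0 to 7 members were higher and 0 to 22 lower, given without the matching share of all measured genes. With TMM scaling 0 (against 11.6%) were higher and 15 (against 12.9%) lower. When G2M-positive cells were called without thinning, the untreated ratio was 1.19 and not 0.844.

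Foxp3 status was compared in the libraries from toxin-treated mice, the only ones with more than 72 Foxp3-positive cells. The summed level was 1.12 times as high in Foxp3-positive as in Foxp3-zero cells of the depleted library (1.10 to 1.13, 1284 and 902 cells) and 1.29 times in the combined library (1.28 to 1.30, 1649 and 2694 cells). Foxp3-positive cells were deeper, with medians of 6612 against 3836 and 4599 against 1952 UMIs, and more of them were G2M-positive (654 against 207 cells in the depleted and 887 against 330 in the combined library). A Foxp3 UMI is itself more likely to be seen in a deep cell. When the UMI had to remain after thinning, the ratios were 0.931 and 0.948. At 2000 to 6000 UMIs they were 0.781 and 0.976.

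In the depleted library 4 of 50 measured members were 1.5-fold higher in Foxp3-positive cells (against 8.34%) and 0 were lower (against 14.1%). The 4 were Nop58 (1.56-fold), Nop2 (1.54-fold), Rrp1b (1.54-fold) and Nop56 (1.51-fold), and Ncl followed at 2526 against 1695 CPM (1.49-fold). Nop10 (1.497-fold lower, just short of the 1.5-fold line), Nol9 (1.45-fold) and Wdr12 (1.37-fold) were the lowest. In the combined library 15 were higher (against 13.3%) and 1 was lower (against 27.4%). Rrp1b was at 105 against 49.7 CPM (2.10-fold, 1.85 to 2.39), Nop2, a ribosomal RNA methyltransferase, at 40.9 against 19.6 CPM (2.09-fold, 1.71 to 2.57), and Nop58 (1.88-fold), Nol10 (1.86-fold) and Nhp2 (1.76-fold) followed. The 1 below was Nop53 (1.56-fold), with Nop10 (1.36-fold) and Nol8 (1.32-fold) next. With TMM scaling 11 members (against 13.4%) were higher and 0 (against 8.76%) lower in the depleted library, and 31 (against 24.2%) and 0 (against 16.3%) in the combined one. Of these 20 calls by library total none was past 1.5-fold in all 6 alternatives tried.

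Splitting by both properties separated them in part. Among G2M-negative cells the Foxp3-positive cells had 0.928 times the summed level of Foxp3-zero cells in the depleted library (0.912 to 0.945), but 1.22 times in the combined library (1.204 to 1.24). Among G2M-positive cells the ratios were 1.12 and 1.03. The cycling contrast was above 1 in all 4 classes: 1.16 and 1.46 in Foxp3-zero cells of the depleted and combined libraries, and 1.39 and 1.22 in their Foxp3-positive cells. The lowest share of the 8 classes, 0.768% (0.760 to 0.776), was found in the 2024 G2M-negative Foxp3-zero cells of the combined library, and the highest, 1.15% (1.14 to 1.16), in its 887 cells positive for both.

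**Figure D5:**
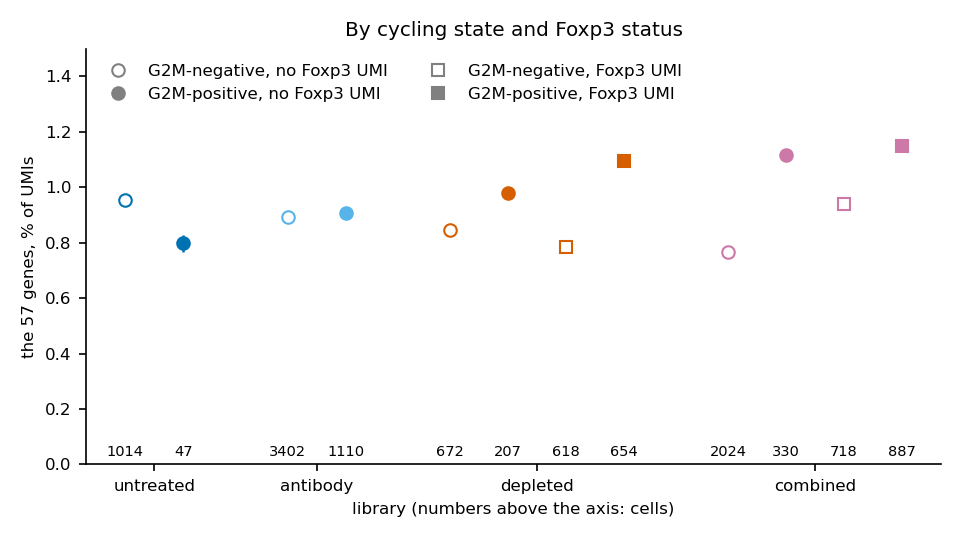
Share of UMIs from the 57 genes in cells split by cycling state (open, G2M-negative; filled, G2M-positive) and Foxp3 status (circles, no Foxp3 UMI; squares, Foxp3 UMI), with 95% counting intervals (smaller than most symbols) and the number of cells. Foxp3-positive cells are drawn for the depleted and combined libraries only, where filled symbols lie above open ones of the same shape; in the untreated library the filled circle lies below the open one.

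Cells that were neither G2M-positive nor Foxp3-positive could be followed through all 5 libraries. The members' share in them was 0.841% in the naive, 0.953% in the untreated, 0.894% in the antibody, 0.846% in the depleted and 0.768% in the combined library. Relative to the untreated library the summed ratio was thus 0.938 with antibody (0.927 to 0.949), 0.888 with Treg depletion (0.873 to 0.903) and 0.806 with both (0.793 to 0.818). Ncl was at 1784 CPM in the untreated cells of this class, against 1427, 1339 and 1321 CPM in the antibody, depleted and combined libraries, and Nop58 at 236 against 219, 170 and 159 CPM. Both were lower in all treated libraries, the reverse of their order over all cells of the depleted and combined libraries. Nop53 was at 684 against 560, 739 and 686 CPM. When the class was restricted to cells with a receptor variable gene UMI, the ratios were 0.930, 0.923 and 0.803. The median cell of the class held 3109, 4174, 3561 and 2058 UMIs, and the part of depth in these ratios was not tested. All values of this class use the library total, and TMM scaling was not applied to it. Over all cells TMM scaling raised the antibody, depleted and combined ratios to untreated by 0.09, 0.31 and 0.19 on the log2 scale.

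Other genes of the pathway, a list of 122 genes that excludes the 57, were counted the same way and are set beside the same shares of all measured genes. In the untreated library against naive, 3 of 111 measured (against 12.8%) were 1.5-fold higher (Exosc3, a subunit of the RNA exosome, 2.08-fold; Senp3, 1.85-fold; Rsl24d1, 1.51-fold) and 10 (against 16.9%) lower, with Exosc1 (1.94-fold) and Ddx55 (1.86-fold), a helicase, the lowest. Against the untreated library the antibody library had 0 higher (against 5.46%) and 1 lower (against 6.62%) of 108, namely Bmt2 (1.54-fold). The depleted library had 6 higher (against 12.2%) and 7 lower (against 27.5%) of 109, and the combined library 6 higher (against 10.6%) and 4 lower (against 18.2%) of 110. Exosc8, another exosome subunit (2.10-fold and 1.94-fold higher), and Lyar, a nucleolar protein (1.79-fold and 1.85-fold), led in both libraries of toxin-treated mice. Mdn1, an ATPase that strips factors from the maturing large subunit, was the lowest in both (2.71-fold and 2.41-fold lower). The combined library against the antibody library had 6 higher (against 7.81%) and 2 lower (against 9.64%) of 107, led by Ddx21, a helicase (1.59-fold). Against the depleted library it had 0 higher (against 4.44%) and 0 lower (against 0.99%) of 108.

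Within libraries, 21 of 107 (against 13.0%) were 1.5-fold higher and 0 (against 20%) lower in cycling cells of the depleted library. In the combined library 27 of 109 (against 13.4%) were higher and 2 (against 27.9%) lower. Lyar led both lists (2.47-fold and 2.93-fold), with Ruvbl2 (2.10-fold and 2.32-fold), a chaperone ATPase of snoRNP assembly. In the antibody library the counts were 5 higher (against 7.45%) and 2 lower (against 11%) of 107, and in the untreated library 3 higher (against 9.76%) and 16 lower (against 15.2%) of 110. Between Foxp3-positive and Foxp3-zero cells they were 1 higher (against 8.34%) and 1 lower (against 14.1%) of 107 in the depleted library, and 14 higher (against 13.3%) and 3 lower (against 27.4%) of 109 in the combined library.

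The MYC network was a list of 9 genes for MYC, its partner MAX and related factors. Over all cells Myc was at 53.8, 55.1, 41.0, 60.2 and 67.4 CPM, and Max at 141, 243, 210, 140 and 148 CPM. Myc was highest in the combined library, as the members' share was, but lowest in the antibody and not in the naive library, and Max was highest in the untreated library. Mxd4, which encodes a MAX partner that opposes MYC, was at 634 CPM in the untreated library against 225 CPM in the naive (2.82-fold higher), and was 4.28-fold lower than untreated in the depleted and 3.83-fold lower in the combined library. Mxd3, another such partner, was higher in cycling cells of all 4 lymph node libraries, at 115 against 2.96 CPM in the depleted library. Myc itself was lower in cycling cells of the combined library (57.3 against 79.7 CPM, 1.39-fold) and of the antibody library (29.7 against 49.0 CPM, 1.65-fold).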

How the data were processed

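The deposited tables hold whole-number UMI counts per gene and cell, as deposited by the authors for 5 libraries made with a 3′ single-cell kit. Per the submitters' processing notes, the tools were bcl2fastq 2.20, Cell Ranger 6.0.0, R 4.1.1 and Seurat 4.0.4, with the mm10 build; their settings, and whether strand was used in counting, are not given in the sources used here. A limit of 200 detected genes and 10% mitochondrial UMIs per cell left out 0 cells. No doublet caller was run. The 57 members, their roles and the other lists were chosen with earlier results of these data known.

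From the counts (Python 3.11.15, numpy 2.4.6, pandas 2.3.3, scipy 1.17.1) UMIs were summed over the cells of a library or class and divided by the total of listed genes to give CPM. With 1 library per group there is no test. Ratios have exact conditional binomial 95% intervals, shares exact Poisson ones, and members count as higher or lower from 1.5-fold. A count of 0 was set to 3 UMIs. The interval and ratio code was tested on simulated data.

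G2M status used 2 or more of 34 genes after thinning to 1000 UMIs. The list had 54 genes, but these called 88.2% of naive cells, so after seeing the data it was cut to genes found in under 1% of thinned naive cells. A Foxp3 UMI in the unthinned cell made it Foxp3-positive. Genes named are, in each role, the 4 most abundant members and a set of representatives, and in each comparison the 5 members with the highest and the 3 with the lowest ratio; from the other genes of the pathway, some of the 3 highest and 2 lowest. Other genes named were chosen after their values were seen. The alternatives were a stricter cell filter, leaving out G2M-positive, Foxp3-positive or other-type cells, only cells of 2000 to 6000 UMIs, TMM factors (edgeR 4.0.16), single-cell means, other G2M and Foxp3 rules and other minimum levels. Added after seeing the data were only cells with a receptor gene UMI (among all cells and among those neither G2M-positive nor Foxp3-positive) and the full G2M list.

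Promoter windows came from RefSeq (the first listed of several for 8 members), and 56 of 57 members were found in GENCODE M21. Of these, 5 overlap another gene on the same strand (Ncl, Nop56, Nop58 and Ppan hold small RNA genes), so their reads could be split. On the opposite strand 19 overlap another gene, which could split their reads only if strand was not used in counting.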

Additional observations from a re-analysis of the deposited data

Results flagged for a closer look

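Some effects of the same kind differed in direction or size between libraries. None of these differences was tested, because each library stands alone.

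The cycling contrast, the summed level of the 57 genes in G2M-positive over G2M-negative cells, was below 1 in the untreated library (0.844, 48 G2M-positive cells) and above 1 in the antibody (1.01), depleted (1.32) and combined (1.38) libraries. Among cells of 2000 to 6000 UMIs the same 4 ratios were 0.745, 0.937, 1.03 and 1.01.

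The Foxp3 contrast among G2M-negative cells was 0.928 in the depleted and 1.22 in the combined library. The Foxp3-zero cells that form its base had a lower members' share in the combined library (0.768%) than in the depleted one (0.846%), and a lower median depth (2058 against 3561 UMIs). The part of depth was not tested.

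The antibody contrast was 0.961 against the untreated library and 1.03 in depleted mice, where the combined library was set against the depleted one. TMM scaling put each ratio on the other side of 1 (1.02 and 0.974).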

How the results depend on the processing

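The summed level of the 57 genes was recomputed under each alternative. A stricter cell filter (500 genes, 5% mitochondrial UMIs) and leaving out cells with markers of another type moved none of the 6 library comparisons beyond its counting interval. Over all alternatives 25 summed ratios moved by less than that. Another 30 crossed 1 from a value whose interval excluded 1, and the remaining 35 moved further without such a crossing. The 35 include ratios of the naive cycling contrast that passed below 1, because its main interval includes 1. Beyond what each alternative changes by construction, the cause was not tested. The order of comparisons below is untreated over naive, antibody over untreated, depleted over untreated, combined over untreated, combined over antibody and combined over depleted. Without G2M-positive cells the first 5 ratios were 1.13, 0.942, 0.856, 0.873 and 0.927, and the Foxp3 contrast was 0.928 in the depleted and 1.22 in the combined library. Without Foxp3-positive cells the last 4 were 0.959, 0.901, 0.942 and 0.939. With cells of 2000 to 6000 UMIs only, the 6 were 0.939, 0.932, 0.854, 0.922, 0.990 and 1.08, the cycling contrast 0.745, 0.937, 1.03 and 1.01 in the untreated, antibody, depleted and combined libraries, and the Foxp3 contrast 0.781 and 0.976. With only cells that carry a receptor gene UMI, an alternative chosen after seeing the data, the first was 1.10 and the last 4 were 0.986, 0.951, 0.998 and 0.965. As a mean of single cells the first was 1.04 and the last 4 were 0.959, 0.940, 0.970 and 0.980, the cycling contrast 1.00, 1.21 and 1.23 in the antibody, depleted and combined libraries, and the Foxp3 contrast 0.965 and 1.14. TMM scaling moved every gene alike in a comparison, by -0.07 to 0.31 on the log2 scale between lymph node libraries and by -0.28 to 0.29 within libraries. The 6 ratios were then 1.14, 1.02, 1.29, 1.22, 1.17 and 0.974, the cycling contrast 0.862, 0.885, 1.16, 1.53 and 1.69 from the naive to the combined library, and the Foxp3 contrast 1.26 and 1.56. With 3 G2M genes required, the cycling contrast was 1.19 in the naive, 1.00 in the antibody and 1.30 in the combined library. Called without thinning it was 0.905, 1.19, 1.11, 1.40 and 1.44 in the 5 libraries. With the full G2M list, also added after seeing the data, it was 0.888 in the untreated, 1.41 in the depleted and 1.24 in the combined library. Where the Foxp3 UMI had to survive thinning the Foxp3 contrast was 0.931 and 0.948, and among G2M-positive cells it was 1.03 in the combined library.

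Counts of members past 1.5-fold were within 1.5 times the values given above in 99 recomputations and outside in 93. The ranges below carry no share of all measured genes under the same alternative, and that share moved too. For depleted over untreated, TMM scaling took it from 12.2% to 22.8% for higher genes and from 27.5% to 14.3% for lower ones. Higher members ranged from 2 to 4 and lower ones from 4 to 17 for untreated over naive, from 0 to 13 and 0 to 8 for depleted over untreated, from 0 to 9 and 0 to 5 for combined over untreated, and from 0 to 4 and 1 to 3 for combined over antibody. In cycling cells of the combined library the higher members ranged from 0 to 30, and in those of the depleted library from 2 to 22. In the 48 untreated cycling cells the higher members ranged from 0 to 7 and the lower ones from 0 to 22. In the Foxp3 contrast the higher members ranged from 0 to 31 in the combined and from 0 to 11 in the depleted library. No paired analysis was possible because each group has 1 library. Depth limits the members under 25 CPM, the 48 untreated and 11 naive G2M-positive cells, and Foxp3 calls in shallow cells.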
